A study of Homo sapiens with 4 samples.

Results

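The calponins and transgelins were followed in HuH7 cells, a human hepatocellular carcinoma line, after knockdown of MKL1 and MKL2. The 6 genes were taken by name (CNN1, CNN2, CNN3, TAGLN, TAGLN2 and TAGLN3), and all 6 were measured, each by 1 probe that lists no other gene, among 18417 genes with a probe of their own. The series holds 2 arrays of cells that stably express a control shRNA and 2 of cells that stably express an shRNA against MKL1 and MKL2. All cells had under 10 passages, were infected with lentiviral plasmids of the pLKO.1 type and were selected with puromycin for 7 days, so the controls carry the vector and the selection too. The sample titles call the arrays biological replicates, without saying whether they come from separate infections or from clones, so the p-values measure the spread between these samples, which may be technical.

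Calponins and transgelins are small actin-binding proteins that share a calponin-homology domain and calponin-like repeats. CNN1 and TAGLN (transgelin, also called SM22-alpha) are classical markers of differentiated smooth muscle, where calponin slows the actomyosin ATPase. CNN2 and TAGLN2 are the forms of many non-muscle cells, CNN3 is the acidic calponin of many tissues, and TAGLN3 is the neuronal transgelin. MKL1 and MKL2, now named MRTFA and MRTFB, are held by monomeric actin and, once released, activate transcription with serum response factor (SRF), which binds a DNA element called the CArG box.

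The 4 arrays had near-equal distributions, with medians of the log2 values between 5.68 and 5.73. The 2 control arrays differed from each other with an SD of 0.154 over genes and the 2 knockdown arrays with an SD of 0.265. The probe that lists MRTFA, which lists a second gene as well, read 7.77 and 7.80 in the controls and 6.81 and 6.91 in the knockdown arrays, and MRTFB read 7.20 and 7.22 against 6.84 and 7.11. MRTFA passed limma's test (adjusted p = 0.0404), whereas MRTFB did not (adjusted p = 0.448). Hepatocyte markers were high on all arrays, with mean log2 values from 8.70 to 12.52 over the 16 of 18 measured and summed linear levels from 43960 to 44350 in control and from 42914 to 44211 in knockdown cells. The 6 markers kept for smooth muscle (MYH11, DES, LMOD1, MYOCD, ACTG2 and SYNPO2) had mean log2 values from 4.01 to 6.04, against a lower quartile of all probes between 3.99 and 4.02. No background level was known, so it cannot be said whether any of these 6 was above background.

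The 6 genes ranged from large falls to little difference. TAGLN and CNN1 fell in the knockdown cells, to 0.155 and 0.178 of their control levels. The difference of CNN2 was intermediate and did not pass the test, and the differences of CNN3, TAGLN2 and TAGLN3 were small. In limma, 2 of the 6 genes were lower at an adjusted p under 0.05 and none was higher, where 0.0923% of all genes tested were called lower, 0.0814% higher and 0.174% in either direction. At an unadjusted p under 0.05, 3 of the 6 were lower and none higher, against 8.04% and 6.25% of all genes. The groups did not overlap, with the knockdown lower, for 4 of the 6 genes (23% of all genes), and with the knockdown higher for 1 (22.5%, and 45.5% in either direction). The same 2 genes that passed were the ones lower by at least 2-fold, as 0.19% of all genes were.

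**Figure D1:**
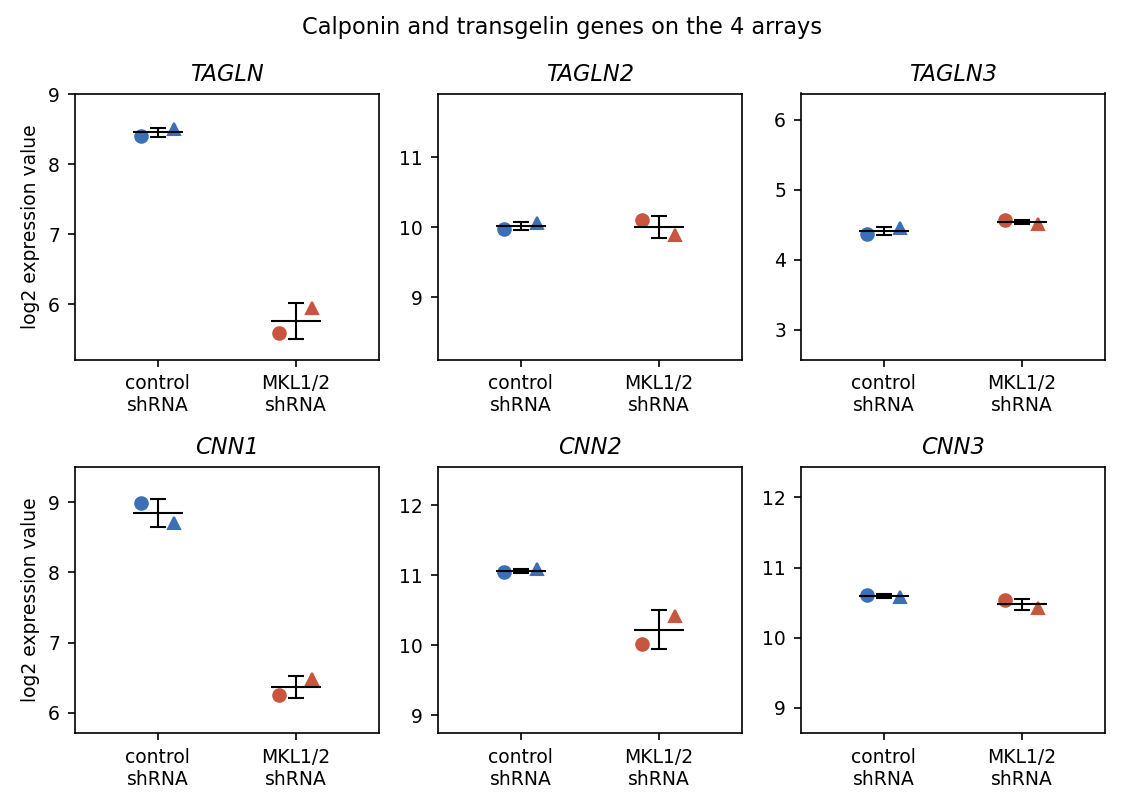
Log2 expression values of the 6 genes (vertical axis, 1 panel per gene, each spanning the same range of log2 units) in control and MKL1/2 shRNA cells. Circles are replicate 1, triangles replicate 2, and bars the mean ± SD of 2 arrays. TAGLN and CNN1 drop by more than 2 log2 units, CNN2 by less than 1, and the other genes show little difference.

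TAGLN, the smooth muscle transgelin, read 8.41 and 8.50 on the control arrays and 5.58 and 5.95 on the knockdown arrays. The groups lay far apart, and the lower knockdown value was that of replicate 1. The means ± SD over 2 arrays were 8.45 ± 0.062 and 5.77 ± 0.257, which gives a log2 difference of -2.69 (95% interval -3.03 to -2.35, SE 0.141) with a limma adjusted p = 0.00679. Expressed as a ratio, the knockdown level was between 0.122 and 0.197 of the control level. With no background level known and knockdown values close to the array medians, background may limit this ratio. The RNA is that of a whole culture, so fewer cells with the transcript and less transcript per cell cannot be told apart. Of the 18417 genes, TAGLN ranked 1 by the size of its fall and 2 by its p-value.

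CNN1, the smooth muscle calponin, read 8.99 and 8.71 on the control arrays and 6.25 and 6.47 on the knockdown arrays. As for TAGLN, the lower knockdown value belonged to replicate 1 and the groups did not overlap. The log2 difference was -2.49 (SE 0.137, 95% interval -2.82 to -2.15, limma adjusted p = 0.00679), which puts the knockdown level between 0.141 and 0.225 of control, with the same limit. CNN1 ranked 3 by the size of its fall. The intervals of CNN1 and TAGLN overlapped, and the CNN1 difference was 0.20 smaller on the log2 scale.

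Both calls rest on having 2 control arrays. Without control replicate 1 the limma adjusted p was 0.232 for both genes, and without control replicate 2 it was 0.217 for TAGLN and 0.121 for CNN1, while no gene of the 18417 passed in either set of 3 arrays (866 and 1219 had an unadjusted p under 0.05). The size of the falls moved little, from -2.87 to -2.51 for TAGLN and from -2.63 to -2.35 for CNN1 over these and the other sets of 3 arrays.

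CNN2, the non-muscle calponin, read 11.05 and 11.09 on the control arrays and 10.03 and 10.42 on the knockdown arrays. Both knockdown values lay below both control values, and the knockdown arrays differed by 0.40 where the controls differed by 0.041. The log2 difference was -0.84 (SE 0.146, 95% interval -1.20 to -0.49), to 0.558 of control, and did not pass over all genes tested (limma adjusted p = 0.11, unadjusted p = 0.00112). Without knockdown replicate 2 the difference was -1.04 and passed (limma adjusted p = 0.0129), and without knockdown replicate 1 it was -0.64 (limma adjusted p = 0.051). Such a set takes its spread from the 2 control arrays and assumes that the lone knockdown array varies like them, and 781 and 299 genes passed in these sets against 32 with all arrays. By limma's moderated variances, the interval of CNN2 did not reach those of TAGLN and CNN1. Without variance moderation, the ordinary linear fit gave CNN2 an unadjusted p = 0.0519, and its intervals were not compared.

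CNN3, the acidic calponin, read 10.61 and 10.58 in control and 10.53 and 10.42 in knockdown cells. The knockdown values were the lower ones by a narrow margin, with a log2 difference of -0.12 (SE 0.0977, 95% interval -0.36 to 0.12, limma adjusted p = 0.64). The interval leaves room for a level of 0.78 to 1.08 times control. With the same moderated variances, it thus lay wholly above the interval of CNN2.

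TAGLN2, the transgelin of many non-muscle cells, read 9.97 and 10.06 in control and 10.11 and 9.89 in knockdown cells. The groups overlapped, with the highest and the lowest value both on knockdown arrays. The log2 difference was -0.02 (SE 0.113, 95% interval -0.29 to 0.26, limma adjusted p = 0.969), a level between 0.816 and 1.20 times control, and its sign turned when the values were quantile normalized again (0.0065). TAGLN3, the neuronal transgelin, read 4.37 and 4.45 in control and 4.56 and 4.52 in knockdown cells. The knockdown values were slightly higher, with a log2 difference of 0.13 (SE 0.0957, 95% interval -0.10 to 0.36, limma adjusted p = 0.599). The TAGLN3 values were close to the lower quartile of all probes, so a change in a transcript at or below background could not be seen here.

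**Figure D2:**
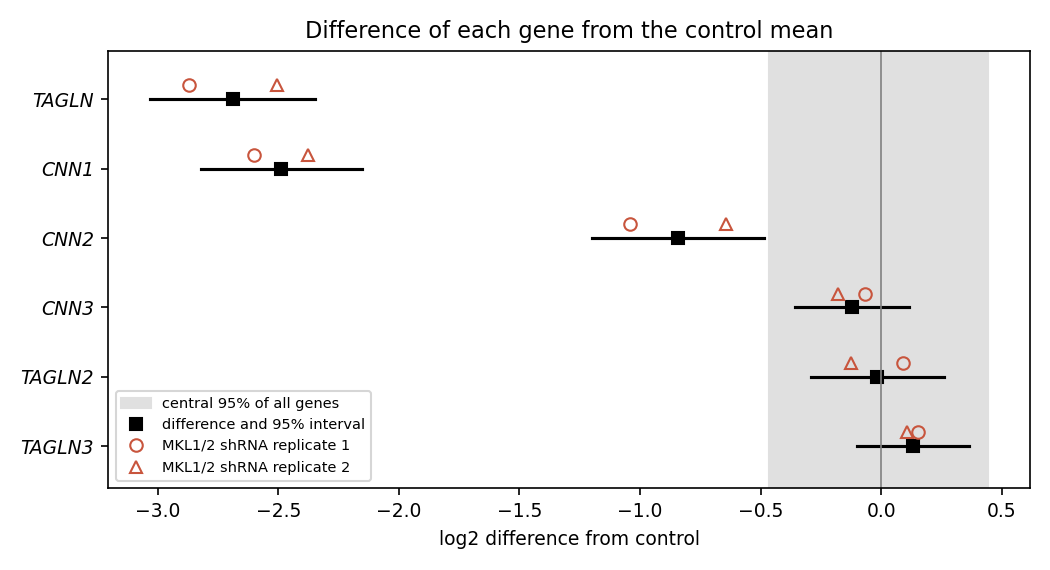
Log2 difference from the control mean (horizontal axis) for the 6 genes. Squares and lines are limma's estimate with its 95% interval, open circles and triangles the knockdown arrays of replicates 1 and 2, and the grey band the central 95% of all genes, from -0.47 to 0.44. TAGLN and CNN1 lie far outside the band, CNN2 lies below it with an interval that ends at -0.49, and the other 3 genes lie within it.

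The amounts of change were compared between members as the log2 difference of 2 members on each array, for all 15 pairs. The log2 difference of TAGLN minus that of TAGLN2 was -2.67, that of CNN1 minus CNN2 was -1.65 and that of CNN2 minus CNN3 was -0.72, each with no overlap between the control and the knockdown arrays. For CNN1 against TAGLN, and for CNN3 against TAGLN2, the within-array differences of the groups overlapped. An exact two-sided permutation test over 2 arrays against 2 cannot go below p = 0.333, the value that 13 of the 15 pairs had (0.385 adjusted over the pairs), so no pair could pass by that test.

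The members also differed in which knockdown array was the lower. TAGLN, CNN1 and CNN2 were lower in knockdown replicate 1 than in replicate 2, by 0.36, 0.23 and 0.40 on the log2 scale. MRTFB lay 0.36 below the control mean in replicate 1 and 0.095 below it in replicate 2, and the MRTFA probe 0.98 and 0.88 below it. SRF, the DNA-binding partner, lay 0.52 below the control mean in replicate 1 and 0.37 below it in replicate 2, and did not pass over all genes (limma adjusted p = 0.188). Myocardin, the third cofactor of the MRTF type, encoded by MYOCD, read 4.11 and 4.03 in control and 3.95 and 4.11 in knockdown cells. Of MRTFB, MYOCD and SRF none was called by limma, and SRF was the 1 that was lower at an unadjusted p under 0.05. Their median log2 difference, without the MRTFA probe, was -0.23, which is the value of MRTFB itself. It became -0.36 when knockdown replicate 2 was left out and -0.095 when replicate 1 was, again the values of MRTFB. Replicate 1 was the farther from control over all genes as well, with SDs of 0.31 and 0.287 from the control arrays against 0.276 and 0.261 for replicate 2, and the part of the targets in the members' values was not tested. CNN3, TAGLN2 and TAGLN3 were lower in replicate 2.

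Upstream sequence was available from RefSeq (GRCh38.p14) for 5 of the 6 genes, in 9 windows of 250 bases before a start site, and TAGLN had no entry. The windows were searched for the CArG box, a pattern of 10 bases that is the same on both strands. The CNN2 window held 1 exact CArG box, 89 to 80 bases upstream of the start, and the other 8 windows held none, also with 1 mismatch allowed. Of all 35116 windows of that length, 1.16% held an exact box and 16.8% a box with up to 1 mismatch. The 3 calponin windows below are shown because the estimated log2 differences of these genes were unequal. Capitals mark the CArG box, and each sequence is that of the gene's strand, read 5′ to 3′. The CNN1 window is chr19:11538601-11538850 (plus strand), that of CNN2 is chr19:1026358-1026607 (plus strand) and that of CNN3 is chr1:94927111-94927360 (minus strand, its more upstream start).
CNN1: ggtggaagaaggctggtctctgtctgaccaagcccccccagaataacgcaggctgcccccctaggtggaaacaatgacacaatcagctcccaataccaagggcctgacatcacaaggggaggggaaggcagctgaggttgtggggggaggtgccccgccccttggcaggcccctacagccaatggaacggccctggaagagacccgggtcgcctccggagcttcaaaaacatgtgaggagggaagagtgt
CNN2: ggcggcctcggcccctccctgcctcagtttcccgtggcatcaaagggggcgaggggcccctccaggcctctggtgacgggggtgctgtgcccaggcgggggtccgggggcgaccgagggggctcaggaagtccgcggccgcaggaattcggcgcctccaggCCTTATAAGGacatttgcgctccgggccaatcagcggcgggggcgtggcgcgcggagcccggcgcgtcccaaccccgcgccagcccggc
CNN3: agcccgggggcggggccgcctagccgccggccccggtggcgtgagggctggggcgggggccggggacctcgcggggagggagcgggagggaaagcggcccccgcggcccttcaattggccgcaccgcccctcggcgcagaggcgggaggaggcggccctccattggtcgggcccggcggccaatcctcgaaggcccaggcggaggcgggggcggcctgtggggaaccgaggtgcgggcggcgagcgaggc
The gene with the box, CNN2, had a log2 difference of -0.84, which did not pass. CNN1, at -2.49, had no box in its window. Neither had CNN3, TAGLN2 and TAGLN3, at -0.12, -0.02 and 0.13, which did not pass either. A window without a box says only that the letters are not there, and TAGLN could not be searched. A second word, GGAATG, read on both strands and bound by TEAD factors, occurred in 1 of the 9 windows, the more downstream start of CNN3, and in 11.9% of all windows; it shares letters with no CArG box there. The 3 windows had GC contents of 60.8%, 75.2% and 80.8% in the order CNN1, CNN2 and CNN3.

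The calponin-homology domain is a fold that the family shares with alpha-actinins, plastins and spectrins. Other genes with this domain did not show falls of the size of TAGLN and CNN1. Of 60 measured genes on this list of 66, none passed limma's adjusted threshold in either direction, and at an unadjusted p under 0.05 there were 11 lower (18.3%) and 2 higher (3.33%), against 8.04% and 6.25% of all genes. The list had a median log2 difference of -0.07, from -0.73 to 0.56, against 0.0082 for all genes, and without knockdown replicate 1 the median was -0.02. By smallest p, IQGAP3, a scaffold of the IQGAP family, read 8.22 and 8.11 in control and 7.40 and 7.46 in knockdown cells (log2 difference -0.73, limma adjusted p = 0.0721). LCP1, which encodes L-plastin, an actin bundler, read 7.57 and 7.71 against 6.97 and 6.84 (-0.73, limma adjusted p = 0.0838). MICAL3, a flavin monooxygenase with a calponin-homology domain, differed by -0.55 (SE 0.113). VAV3 differed by 0.52 (SE 0.0975), with control values of 3.73 and 3.66, below the lower quartile of all probes.

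Genes of the smooth muscle contractile apparatus, in which TAGLN and CNN1 are known best, were followed together with actin-binding genes as a second list. Of 20 measured genes on this list of 22, none was called by limma, while 8 were lower (40%) and none higher at an unadjusted p under 0.05, against 8.04% and 6.25% of all genes. The groups did not overlap, with the knockdown lower, for 12 of the 20, against 23% of all genes, and no test of the list against all genes was run. The median log2 difference was -0.22; taken from knockdown replicate 1 alone it was -0.37, and from replicate 2 alone -0.18. MYL9, the regulatory light chain of myosin, read 10.16 and 10.27 in control and 8.80 and 9.15 in knockdown cells, so that it differed by -1.24 (SE 0.141, limma adjusted p = 0.0508). SVIL, the actin- and myosin-binding supervillin, read 8.03 and 7.88 against 6.77 and 7.04, and differed by -1.06 (SE 0.127, limma adjusted p = 0.0563). CSRP1, a LIM domain protein of the actin cytoskeleton, differed by -0.72 (SE 0.134), and SMTN, smoothelin, which is on both lists, by -0.52 (SE 0.122). ACTA2, a smooth muscle actin gene on the same list, differed by -0.07 (SE 0.129, limma adjusted p = 0.855), and its groups overlapped. The 6 smooth muscle markers given above, all but MYOCD, are on this list too, so they are not a separate set. Of these markers 4 were lower and 2 higher, with log2 differences from -0.20 for ACTG2 to 0.05 for MYH11. None of them passed in limma, adjusted or at an unadjusted p under 0.05. The groups did not overlap, with the knockdown lower, for ACTG2 and LMOD1. The summed linear level of the 6 smooth muscle markers was 189 and 194 in control and 192 and 182 in knockdown cells. The summed level of 8 fibroblast and pericyte markers ran from 564 to 571 in control and from 428 to 723 in knockdown cells, with the lowest value in knockdown replicate 1. Of these 8 genes the one with the largest spread was LUM, which encodes the matrix protein lumican, at 7.13 and 8.60 in the knockdown arrays, and its part in the results was not tested.

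**Figure D3:**
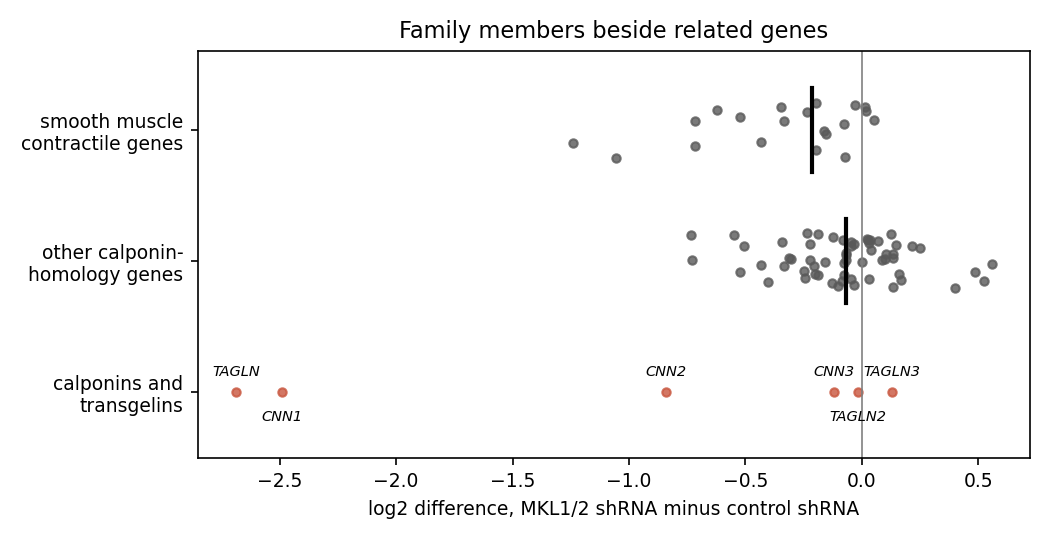
Log2 difference of MKL1/2 shRNA minus control cells (horizontal axis) for the 6 family members (named points) and for related genes. The related genes are 60 other calponin-homology domain genes and 20 smooth muscle contractile and actin-binding genes (labelled as contractile genes). Each point is 1 gene, and the thick bars are the list medians of -0.07 and -0.22. TAGLN and CNN1 lie below every gene of both lists.

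The genes whose pattern over the 4 arrays was most like that of CNN1 were GLIPR1, TAGLN, MYH9, TGFB1 and VGLL3. Likeness was measured as the Euclidean distance between the 4 deviations from each gene's mean on the log2 scale, among 17521 named genes. The distances from CNN1 were 0.304 for GLIPR1, a secreted-type glycoprotein with a CAP domain, 0.34 for TAGLN and 0.348 for MYH9, which encodes a non-muscle myosin II heavy chain. TGFB1, the cytokine, and VGLL3, a cofactor of TEAD factors, followed at 0.671 and 0.746. From TAGLN, the nearest gene was CNN1, and GLIPR1, MYH9, TGFB1 and VGLL3 followed at 0.421, 0.46, 0.76 and 0.968. CNN2 lay 1.66 from CNN1 and 1.85 from TAGLN. With 4 arrays this measure is led by the size of the group difference, so it lists the genes with falls of similar size.

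**Figure D4:**
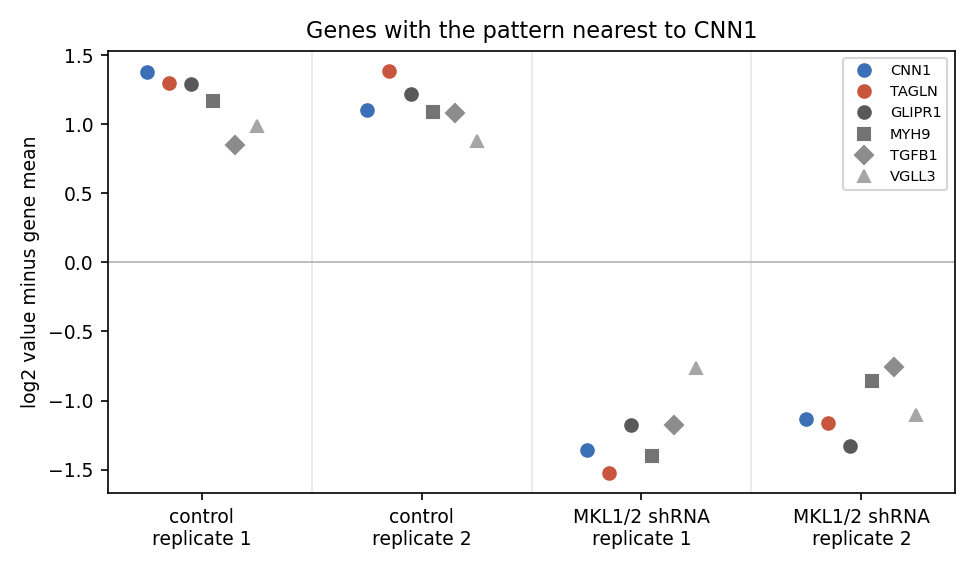
Log2 value minus the gene's mean over the 4 arrays (vertical axis) on each array for CNN1, TAGLN and the other 4 genes nearest to CNN1. All 6 genes are positive on both control arrays and negative on both knockdown arrays; GLIPR1 and VGLL3 are lower in knockdown replicate 2 and the others in replicate 1.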

How the data were processed

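Total RNA of 4 HuH7 samples was hybridised to 1-colour arrays, 1 array per sample, grouped by the sample titles. The deposited table holds log2 expression values for 33297 probes, of which the authors' processing notes name the tool, Partek, but no source used here gives the steps. That the scale is log2 follows from the range, 1.03 to 13.65. Probes were named from the platform annotation, with symbols updated by Entrez ID (19429 of 19460 single-gene probes found in GRCh38.p14, used for names, neighbours and promoters). The probe with the highest mean stood for each gene, and no dim gene was removed. The 18417 genes were fitted with limma 3.58.1 in R 4.3.3 (lmFit, eBayes, group only, two-sided, Benjamini-Hochberg over all genes, threshold 0.05; 2 residual and 4.12 prior degrees of freedom) and the procedure was tested on simulated data. The MRTFA probe was fitted beside them. Errors are SDs over 2 arrays or moderated SEs, and the number of arrays limits the precision. The members, lists and alternatives were chosen with earlier results of these data known. Named genes are the members, the shRNA targets, MYOCD and SRF, the 4 list genes with the smallest p, and the 5 genes nearest to each called member. ACTA2, MYH11, ACTG2, LMOD1, LUM, the neighbouring genes and FHL2 were named after their values were seen. At most 174 probes had identical values in any pair of arrays, so no array was a duplicate.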

Additional observations from a re-analysis of the deposited data

How the results depend on the processing

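TAGLN and CNN1 kept their direction in all 11 alternatives and passed the limma threshold in 8. The exceptions were the fit without variance moderation (log2 differences -2.69 and -2.49, adjusted p = 0.419 for both) and the sets without control replicate 1 or 2; without 1 array the differences ran from -2.87 to -2.51 for TAGLN, from -2.63 to -2.35 for CNN1, from -1.04 to -0.64 for CNN2 and from -0.13 to 0.092 for TAGLN2. A set with 1 array in a group assumes that it varies like the other group. CNN2 passed in 1 of 11 alternatives, CNN3 in none, and TAGLN3, which the filter on dim genes removed, in none of 10. TAGLN2 turned sign after quantile normalization (0.0065), without control replicate 2 (0.026) and without knockdown replicate 2 (0.092). The 17 lower and 15 higher genes became 27 and 19 without the dimmest 40% of genes and 27 and 21 after quantile normalization. They became 37 and 31 with a variance trend, and 0 and 0 without moderation (1022 and 818 at an unadjusted p under 0.05 in the ordinary linear fit). Without 1 array the counts ran from 0 to 442 lower and from 0 to 339 higher. With the replicate number as a block, 38 were lower and 55 higher, and TAGLN and CNN1 passed at adjusted p = 0.0012 and 0.00292; no label ties equal numbers to one day or batch, and same-numbered deviations correlated at -0.067 over genes, so the numbers were not taken as pairs. The median of the contractile and actin-binding list was -0.35 without dim genes, and from -0.37 to -0.18 without 1 array. That of the calponin-homology list ran from -0.069 to -0.017 without 1 array. The cause of these shifts was not tested.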

Other observations

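The chromosomal neighbours of the 6 genes differed by much less than TAGLN and CNN1. Of the 24 nearest protein-coding genes, 2 on each side of each member, 22 were measured, and none passed limma's adjusted threshold (1 had an unadjusted p under 0.05). Their log2 differences ran from -0.33 to 0.26, with a median of -0.01. Beside TAGLN on chromosome 11, SIDT2, a lysosomal nucleic acid transporter, differed by 0.21, and PCSK7, a proprotein convertase whose RefSeq span overlaps that of TAGLN, by -0.16 (6.58 ± 0.142 in control and 6.43 ± 0.081 in knockdown cells, mean log2 value ± SD, n = 2 each). Beside CNN1 on chromosome 19, ECSIT, a mitochondrial complex I assembly factor, differed by 0.05 and ELOF1, a transcription elongation factor, by -0.06.

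Over all genes with an upstream window, 229 of 14239 held an exact CArG box. Of these 229, 36 (15.7%) were lower at an unadjusted p under 0.05 in limma, against 8.5% of the 14010 without a box, and their medians were -0.02 and 0.0035. FHL2, which encodes a LIM domain protein, was the 1 gene with a box among the 12 of these genes that fell at the adjusted threshold. At that threshold 2 genes with a box and 11 without one rose. No test was run on these shares. The share that was higher at an unadjusted p under 0.05 was not counted, so whether genes with a box also rose more often was not tested. Of all 18417 genes 17 were called lower, and TAGLN is among those without a window.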
